A study of Mus musculus with 8 samples.

Results

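10 genes of guidance signalling were followed in osteoblasts sorted from mouse bone: Sema3a, Sema4d, Sema7a, Nrp1, Plxnb1, Efnb1, Efnb2, Ephb2, Ephb4 and Slit3. They were taken by symbol because semaphorins, ephrins and Slits are cues that osteoblasts, osteoclasts and vessels use on each other, and all 10 were found among the 21154 genes of the count table. The cells came from female Col2.3-GFP mice, in which a piece of the Col1a1 promoter, active in bone-forming cells, drives a green fluorescent protein used for sorting. Mice aged 8 to 10 weeks were given 4 weekly intravenous injections of either PBS or doxorubicin at 5 mg/kg, an anthracycline that poisons topoisomerase II and is used in chemotherapy, and bone was taken 8 weeks after treatment. All libraries share the reporter genotype, the injections and the sort. There were 3 PBS and 5 doxorubicin (DOX) libraries, which the titles call biological replicates; nothing further says how animals map to libraries, so p-values measure the spread between these libraries. The labels number 2 batches: PBS replicate 1 shared batch 1 with DOX replicates 1 and 2, while the rest were in batch 2. The library titled DOX replicate 1 has a treatment tag of PBS, so its group rests on its title. Fold changes over all libraries were also computed with it counted as PBS. The differences within and between batches were not.

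Semaphorins are secreted or membrane-bound ligands read by plexins, with neuropilins as co-receptors for most secreted class 3 members. In bone, semaphorin 3A from osteoblasts is known to restrain osteoclasts and favour bone formation through neuropilin 1, whereas semaphorin 4D is known as an osteoclast product that restrains osteoblasts through plexin B1. B-type ephrins span the membrane, so that contact with an EphB receptor signals into both cells; ephrin B2 on osteoclasts and EphB4 on osteoblasts form the classic pair. SLIT3, a secreted protein read by ROBO receptors, is known from bone as an osteoblast-lineage cue for the vessels that accompany bone formation.

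The sorted libraries carried the osteoblast markers. All 12 markers of that list were counted in every library, with a summed level of 203000 to 537000 CPM (counts scaled to a common library size of 1000000) in PBS and 222000 to 430000 CPM in DOX. Library totals ran from 39419027 to 44299591 counts. The share of counts in Col1a1 and Col1a2, the type I collagen genes, was lowest in PBS replicate 1 (19.1%) and DOX replicate 1 (23.2%). In the other libraries it ran from 26.0% to 39.5%. Of 14 endothelial markers 13 were found, with a summed level of 36.8 CPM in PBS replicate 1, 33.2 CPM in DOX replicate 2 and 6.65 to 11.4 CPM elsewhere. Osteoclast markers summed to 327 to 455 CPM in PBS and 407 to 477 CPM in DOX, most of it Ctsk (cathepsin K, 266 to 416 CPM). Nfatc1 lay between 28.8 and 52.7 CPM, Itgb3 between 8.84 and 46.4 CPM and Mmp9 between 2.44 and 22.8 CPM. Itgb3 and Mmp9 were highest in PBS replicate 1. Acp5 (tartrate-resistant acid phosphatase) lay between 3.58 and 7.51 CPM. The other osteoclast markers were scarce: Atp6v0d2 reached at most 1.67 CPM, Oscar 0.62 CPM and Ocstamp 0.488 CPM. Calcr and Dcstamp were not in the count table. Markers of T and B cells summed to at most 16.4 CPM.

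Every one of the 10 genes was counted in every library, from 62 counts of Ephb2 in PBS replicate 3 to 9643 counts of Sema4d in PBS replicate 2, and all passed the filter on low counts. Levels of different genes were compared per length, as CPM per kb of exon. On that scale 3 ligand genes stood highest: Efnb1 with a mean of 29.8 over the 8 libraries, Sema4d with 25.9 and Slit3 with 16.1. A middle group held the receptor genes Nrp1 (4.77), Plxnb1 (4.39) and Ephb4 (4.30) and the ligand gene Sema7a (4.32). Sema3a (1.10), Efnb2 (0.771) and Ephb2 (0.280) were lowest. The steps from Slit3 down to Nrp1 and from Ephb4 down to Sema3a were the steps with no overlap of the libraries' ranges. For the latter step the gap was narrow, with 1.61 as the lowest Ephb4 value and 1.59 as the highest Sema3a value. Lengths cover all annotated exons of a gene, so the order depends on the annotation. Within the middle group neighbours did not differ beyond their spread: Nrp1 was above Plxnb1 in 5 of 8 libraries and Plxnb1 above Sema7a in 3 of 8. Efnb1 exceeded Sema4d in 7 of 8 libraries and Efnb2 exceeded Ephb2 in 8 of 8, although the ranges of each pair overlapped.

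**Figure D1:**
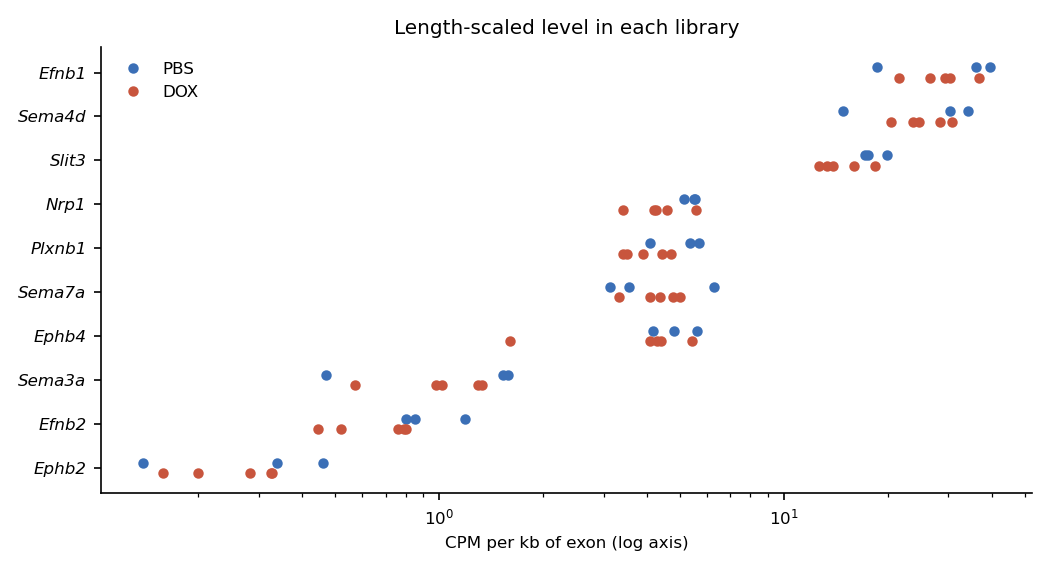
Length-scaled level of each gene (x axis, CPM per kb of exon, log axis) in each library, with PBS libraries in blue and DOX libraries in red. Efnb1, Sema4d and Slit3 form the top group, at 12.6 CPM per kb or more in every library.

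None of the 10 genes passed the threshold between DOX and PBS. EdgeR's quasi-likelihood test, with batch as a term and adjusted over all genes, called 0 of 15373 genes (0%), and the adjusted p of the 10 genes ran from 0.995 to 0.998. Unadjusted, 571 genes (3.71%) had a p under 0.05, and Efnb2 was the one member among them. DESeq2 called 26 genes (0.123%) with none of the 10 among them, each having an adjusted p of 1, and limma-voom called 0 (0%), with 1565 genes (10.2%) at an unadjusted p under 0.05, among them 4 of the 10 (Nrp1, Plxnb1, Efnb2 and Slit3, all with a lower value in DOX). Of the 10 log2 fold changes 8 were below 0 and 2 above, with a median of -0.27. Over all genes tested 7228 were below 0 and 8145 above, with a median of 0.02. The median of the 10 genes was -0.06 without DOX replicate 1 and 0.03 with that library counted as PBS. In none of the 10 did the CPM values of the groups fail to overlap, a pattern found in 1.24% of all genes for higher and 1.19% for lower values in DOX. In such bulk libraries, fewer cells of a type and less RNA per cell cannot be told apart.

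**Figure D2:**
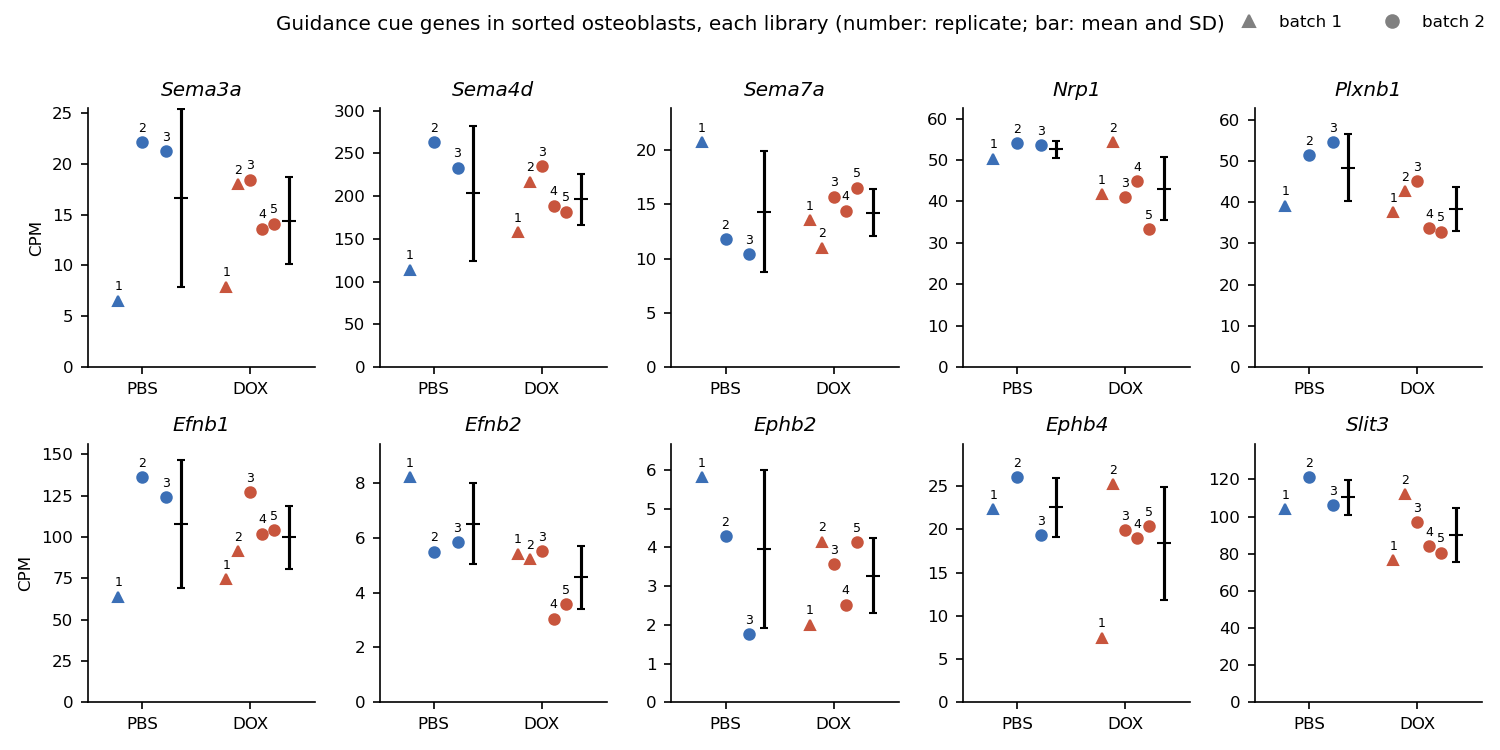
CPM of each gene (y axis, from 0) in each PBS (blue) and DOX (red) library, with the replicate number beside each point, triangles for batch 1 and circles for batch 2, and the mean and SD of each group in black. PBS replicate 1 lies apart from the other PBS libraries for Sema3a, Sema4d, Efnb1 and Sema7a, and DOX replicate 1 lies lowest for Ephb4.

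Of the 3 semaphorin genes followed, Sema4d had the highest level per length in every library. Its level was 114, 263 and 233 CPM in PBS replicates 1 to 3 and 158, 217, 235, 189 and 182 CPM in DOX replicates 1 to 5. PBS replicate 1 and DOX replicate 1 were the low libraries, and the DOX values lay inside the PBS range. Between the groups the log2 fold change was 0.04 ± 0.21 (SE), with a 95% interval of -0.43 to 0.52. Sema4d is also a gene of lymphocytes and osteoclasts. Markers of T and B cells summed to 2.76 to 12.5 CPM in PBS and 0.794 to 16.4 CPM in DOX. Osteoclast markers summed to 327 to 455 CPM in PBS and 407 to 477 CPM in DOX. Most of that sum was Ctsk (266 to 416 CPM), whereas Atp6v0d2, Oscar and Ocstamp each stayed at 1.67 CPM or lower. The part of these cells in the Sema4d values was not tested.

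Sema3a, the gene of the osteoblast cue that restrains osteoclasts, had the widest spread of the 10 genes. It stood at 6.52, 22.1 and 21.2 CPM in PBS and at 7.90, 18.0, 18.4, 13.6 and 14.1 CPM in DOX. The same pair of libraries as for Sema4d was low, and DOX values again lay inside the PBS range. The SD of its log2 CPM over the 8 libraries was 0.65, against a median of 0.34 over all genes tested. The log2 fold change of -0.03 ± 0.33 (SE) had an interval of -0.77 to 0.72.

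Sema7a encodes a membrane-anchored semaphorin that acts through integrin beta 1 and plexin C1. Its levels were 20.7, 11.8 and 10.4 CPM in PBS and 13.5, 11.0, 15.7, 14.4 and 16.5 CPM in DOX. Here PBS replicate 1 was the highest library of all, the reverse of its place for Sema3a and Sema4d, and the DOX values lay inside the PBS range. For the group difference the log2 fold change was 0.01 ± 0.24 (SE; interval -0.52 to 0.53).

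Nrp1 and Plxnb1, receptor genes for semaphorins 3A and 4D, had lower mean CPM in DOX, short of the threshold. Nrp1, the neuropilin that holds semaphorin 3A and also VEGF, stood at 50.3, 54.0 and 53.6 CPM in PBS and 41.7, 54.3, 41.1, 44.9 and 33.3 CPM in DOX. The PBS libraries lay close together and 4 of 5 DOX libraries lay below all of them, with DOX replicate 2 above. Its log2 fold change was -0.31 ± 0.15 (SE; interval -0.63 to 0.02; unadjusted p = 0.0629 and adjusted p = 0.995 in edgeR). With DOX replicate 1 counted as PBS the log2 fold change was -0.19. Nrp1 is also an endothelial gene, and DOX replicate 2 was the DOX library with the highest sum of endothelial markers (33.2 CPM). Among the PBS libraries Nrp1 was lowest in replicate 1, which had the highest sum (36.8 CPM). Of the 8 endothelial markers tested 3 were higher and 5 lower in DOX, and Cdh5, Tie1, Kdr and Cldn5 were at 0 counts in some libraries; the part of endothelial RNA in the Nrp1 values was not tested.

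Plxnb1, which encodes the receptor of semaphorin 4D, stood at 39.1, 51.3 and 54.5 CPM in PBS and 37.5, 42.6, 45.1, 33.7 and 32.8 CPM in DOX. DOX replicates 1, 4 and 5 lay below every PBS library, and the groups overlapped through PBS replicate 1. Its log2 fold change was -0.32 ± 0.16 (SE; interval -0.67 to 0.03; unadjusted p = 0.0680, adjusted p = 0.995 in edgeR). The annotation places 257 bases of an antisense transcript, Gm7628, over Plxnb1 exons. Gm7628 had 237 counts in all against 14115 for Plxnb1. How reads in the shared bases were assigned is not given, and their part in the Plxnb1 values was not tested.

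Of the ephrin genes, Efnb1 followed the pattern of Sema3a and Sema4d across libraries. It stood at 64.0, 136 and 124 CPM in PBS and 74.6, 91.4, 127, 102 and 104 CPM in DOX. The lowest values were again those of PBS replicate 1 and DOX replicate 1, and all DOX values lay inside the PBS range. Its log2 fold change was -0.02 ± 0.16 (SE), with an interval of -0.37 to 0.33.

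Efnb2, the ligand gene of the classic ephrin B2 and EphB4 pair, had the largest difference of the 10 genes. It stood at 8.19, 5.48 and 5.83 CPM in PBS and 5.42, 5.21, 5.51, 3.05 and 3.57 CPM in DOX. DOX replicates 4 and 5 were the low libraries; DOX replicates 1 and 2 lay just below the lowest PBS value and DOX replicate 3 just above it. The log2 fold change was -0.54 ± 0.23 (SE; interval -1.04 to -0.03; unadjusted p = 0.0407, adjusted p = 0.995 in edgeR), where 1.74% of all genes tested had an unadjusted p under 0.05 and a lower value in DOX. Counts ranged from 132 to 436 per library. Efnb2 is a gene of arterial endothelium, and its highest library, PBS replicate 1, was also the highest in endothelial markers (36.8 CPM). DOX replicate 2 had the next highest sum (33.2 CPM), with Efnb2 at 5.21 CPM, below every PBS library. The part of endothelial RNA in the Efnb2 values was not tested. Without PBS replicate 1 the log2 fold change was -0.48. Batch 1 then holds no PBS library, so that value compares the groups within batch 2 alone.

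The EphB receptor genes varied between libraries of both groups. Ephb4 stood at 22.3, 26.0 and 19.3 CPM in PBS and 7.48, 25.2, 19.9, 19.0 and 20.4 CPM in DOX. One library, DOX replicate 1, was far below the other 7, with 370 counts against 683 to 1185. The log2 fold change of -0.29 ± 0.30 (SE; interval -0.97 to 0.39) moved with single libraries: it was -0.09 without DOX replicate 1, 0.15 with that library counted as PBS and -0.60 without DOX replicate 2. Ephb2, whose product binds B ephrins and is better known from neurons, stood at 5.80, 4.28 and 1.76 CPM in PBS and 2.00, 4.14, 3.57, 2.52 and 4.13 CPM in DOX. PBS libraries held both its highest and its lowest value, and its log2 fold change was -0.25 ± 0.40 (SE; interval -1.13 to 0.63).

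Slit3 showed the narrowest spread of the 10 genes, with an SD of log2 CPM of 0.24. It stood at 104, 121 and 106 CPM in PBS and 76.6, 112, 96.9, 84.0 and 80.6 CPM in DOX. DOX replicate 2 reached into the PBS range and the other 4 DOX libraries lay below it. The log2 fold change was -0.30 ± 0.15 (SE; interval -0.63 to 0.03; unadjusted p = 0.0691, adjusted p = 0.995 in edgeR). Its paralog Slit2, the Slit gene with the highest CPM, stood at 327, 327 and 301 CPM in PBS and 233, 328, 270, 246 and 232 CPM in DOX. The log2 fold change of Slit2 was -0.29 ± 0.14 (SE, adjusted p = 0.995 in edgeR), and the same 4 DOX libraries lay below every PBS library. With DOX replicate 1 counted as PBS the log2 fold change was -0.14 for Slit3 and -0.13 for Slit2.

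**Figure D3:**
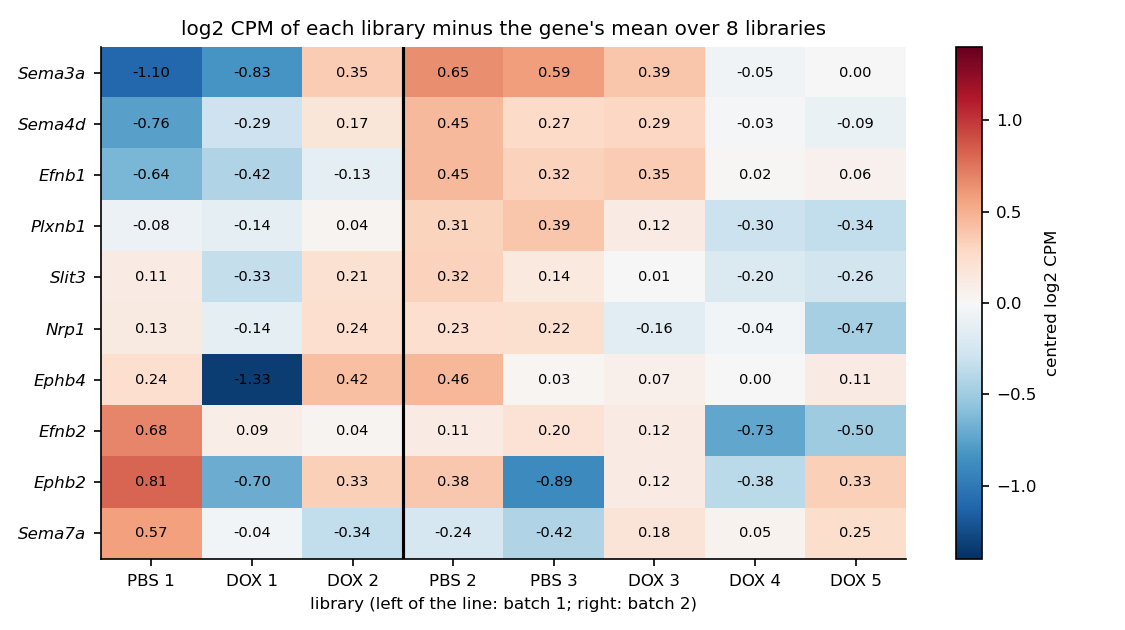
Log2 CPM of each gene (rows) in each library (columns) minus the gene's mean over the 8 libraries; red is above and blue below that mean, and the line separates batch 1 from batch 2. Sema3a, Sema4d and Efnb1 are low in PBS replicate 1 and DOX replicate 1, whereas Sema7a, Ephb2 and Efnb2 are highest in PBS replicate 1.

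For 9 of the 10 genes the highest library was a PBS library, as for 44.5% of all genes tested, and for 5 of the 10 the lowest was one too, as for 47.9% of all; these shares are given with no test. PBS replicate 1 was the lowest library for 3 of the 10 genes (Sema3a, Sema4d and Efnb1) and the highest for another 3 (Sema7a, Efnb2 and Ephb2). Over all genes tested it was the lowest for 19.2% and the highest for 18.4%. PBS replicate 2 was the highest library for 5 of the 10 genes, against 11.9% of all genes. For Sema3a, Sema4d and Efnb1, the low libraries PBS replicate 1 and DOX replicate 1 were also those with the lowest collagen share; they also had the highest sums of erythroid markers, 158 and 110 CPM against 3.07 to 39.4 CPM elsewhere. The part of either in the values was not tested.

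Differences within batches turned direction for several genes. The mean log2 CPM of DOX minus PBS was 0.87 in batch 1 and -0.51 in batch 2 for Sema3a, 0.70 and -0.30 for Sema4d, and 0.37 and -0.24 for Efnb1. For Sema7a it was -0.76 and 0.49, and for Ephb2 -1.0 and 0.28. Plxnb1 was near 0 in batch 1 (0.03) and at -0.52 in batch 2. For the other genes both batches gave a lower value in DOX: -0.62 and -0.52 for Efnb2, -0.69 and -0.18 for Ephb4, -0.17 and -0.38 for Slit3 and -0.08 and -0.45 for Nrp1. Opposite signs were found for 6 of the 10 genes (60.0%) and for 56.8% of all genes tested. Batch 1 has 1 PBS library, so its values rest on PBS replicate 1. They were not recomputed with DOX replicate 1 counted as PBS.

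The difference between the batches was tested as an interaction, in which the PBS side of batch 1 is PBS replicate 1 alone; every value of it rests on that library, and it could not be fitted without it. EdgeR called 0 of 15373 genes (0%), with 1806 (11.7%) at an unadjusted p under 0.05, and 4 of the 10 genes were among these. For Sema7a the batch 2 difference exceeded that of batch 1 by 1.25 ± 0.28 on the log2 scale (SE; adjusted p = 0.219 in edgeR), and DESeq2 called it (adjusted p = 0.0377), among 269 genes (1.79%) that DESeq2 called. The difference between batches was -1.01 ± 0.31 for Sema4d (adjusted p = 0.296), -1.48 ± 0.53 for Sema3a (0.335) and -0.60 ± 0.27 for Efnb1 (0.421), all in edgeR. For Efnb2 it was 0.14 ± 0.49 and for Slit3 -0.23 ± 0.30.

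**Figure D4:**
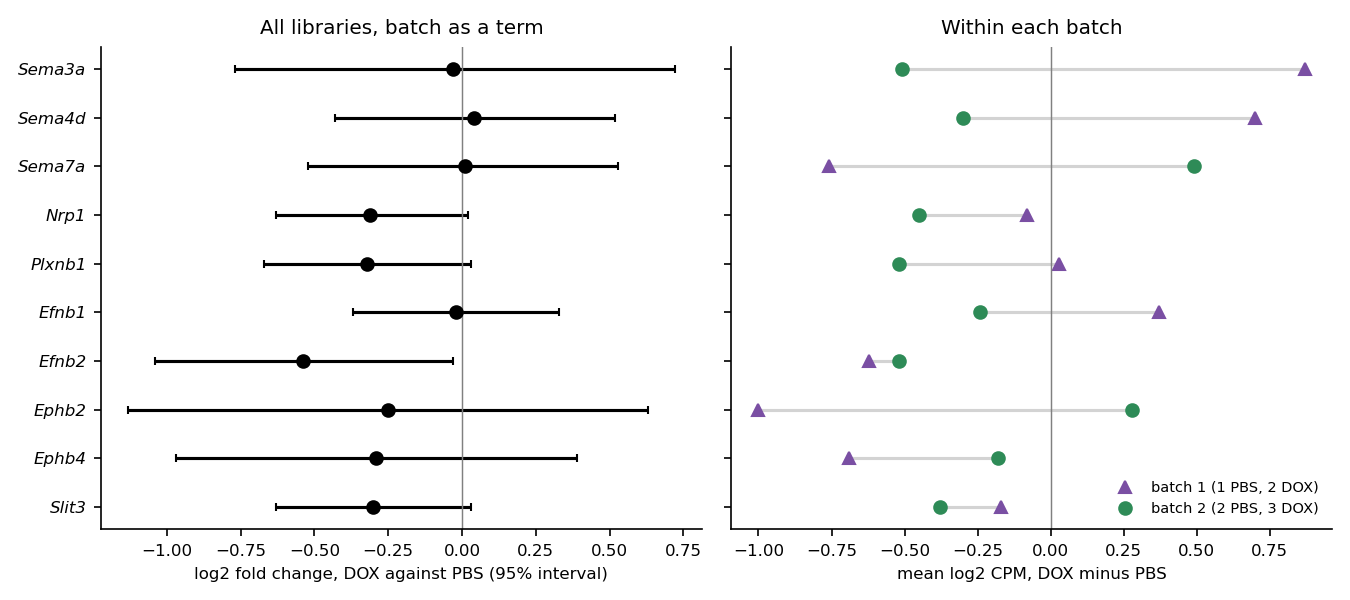
Left, log2 fold change of each gene between DOX and PBS over all libraries (x axis) with its 95% interval. Right, mean log2 CPM of DOX minus PBS within batch 1 (triangles) and batch 2 (circles); Sema3a, Sema4d, Efnb1, Sema7a and Ephb2 lie on opposite sides of 0 in the 2 batches, and Efnb2, Ephb4, Slit3 and Nrp1 lie below 0 in both.

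Within batch 2 alone, with 2 PBS and 3 DOX libraries, no gene passed the threshold. EdgeR called 0 of 14994 genes, with 922 higher (6.15%) and 1002 lower (6.68%) at an unadjusted p under 0.05. Of the 10 genes 4 were lower at that level: Plxnb1 (-0.50 ± 0.15, SE), Sema3a (-0.49 ± 0.16), Nrp1 (-0.43 ± 0.14) and Slit3 (-0.38 ± 0.12). Sema7a was the 1 higher gene at that level, with 0.49 ± 0.15 (SE). The adjusted p of these 5 genes in edgeR ran from 0.319 to 0.324.

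The wider pathways were described through lists of their genes. Over the 6 lists of ligands, receptors and effectors joined, 54 of 71 tested genes had a log2 fold change below 0 and 17 above, with a median of -0.16, and edgeR called none at an adjusted p under 0.05. Over all genes tested 7228 of 15373 were below 0. At an unadjusted p under 0.05 in edgeR were 3 genes of the lists (4.23%), against 3.71% of all genes in either direction. Each of the 3 had a lower value in DOX, which at that level was found for 1.74% of all genes. Semaphorin ligands had 11 of 16 lower (median -0.16), semaphorin receptors 11 of 13 (median -0.20), ephrin ligands 5 of 8 (median -0.17), Eph receptors 7 of 9 (median -0.25), Slit and Robo genes 4 of 4 (median -0.30) and intracellular effectors 16 of 21 (median -0.05). These medians moved with single libraries. Without PBS replicate 1 no PBS library is left in batch 1, so the comparison is then within batch 2 alone. Leaving out 1 library gave -0.27 to 0.00 for semaphorin ligands (0.00 without PBS replicate 3) and -0.37 to -0.17 for semaphorin receptors (-0.37 without PBS replicate 1). The range was -0.21 to 0.00 for ephrin ligands (0.00 without PBS replicate 1, -0.07 without DOX replicate 1) and -0.62 to -0.06 for Eph receptors, where the median was -0.62 without PBS replicate 3, -0.06 once PBS replicate 1 was dropped and -0.10 without DOX replicate 1. It was -0.48 to -0.24 for Slit and Robo genes (-0.48 without PBS replicate 1) and -0.14 to -0.02 for effectors (-0.14 without PBS replicate 1, -0.02 without DOX replicate 5). With DOX replicate 1 counted as PBS the 6 medians lay between -0.14 and -0.04.

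**Figure D5:**
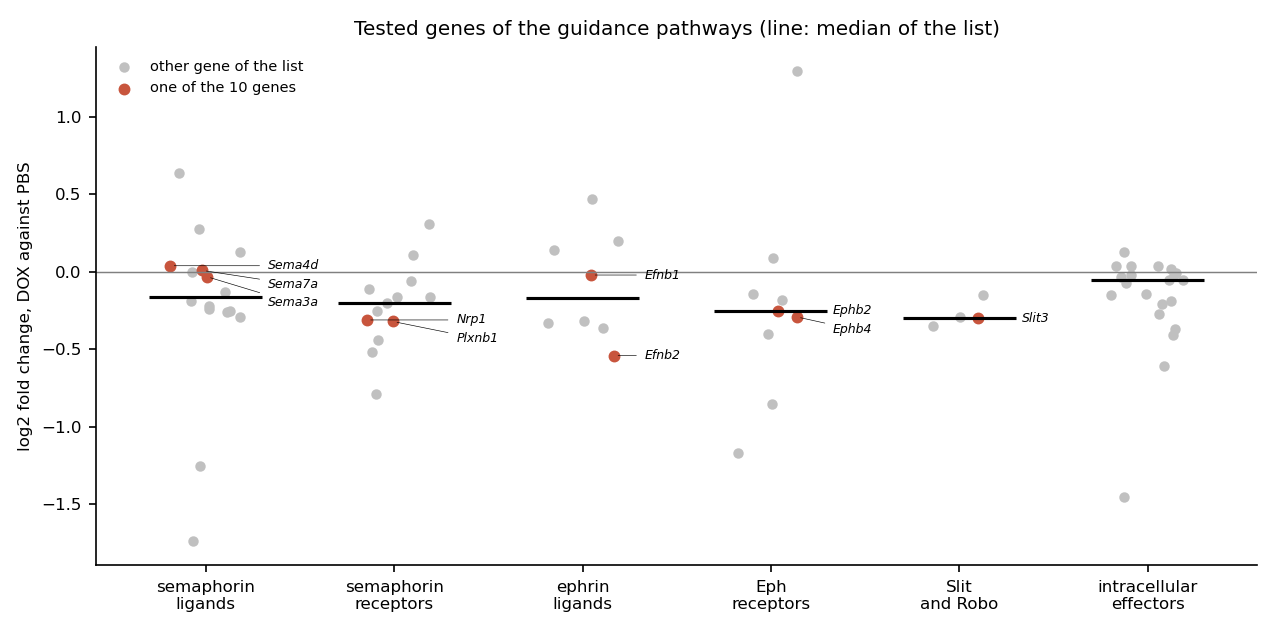
Log2 fold change between DOX and PBS (y axis) of each tested gene in the 6 pathway lists (x axis), with the 10 followed genes in red and the median of each list as a line. Over all 8 libraries the 6 medians lie between -0.30 and -0.05; those of the semaphorin and ephrin ligands reach 0.00 when 1 PBS library is left out.

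Of the receptors, the nominally lower ones were Plxna2 and Plxna1, plexins that pair with neuropilins. Plxna2 stood at 25.0, 12.4 and 9.60 CPM in PBS and 10.1, 11.1, 4.85, 9.28 and 8.88 CPM in DOX. Its log2 fold change was -0.79 ± 0.24 (SE; unadjusted p = 0.00791; adjusted p = 0.995 in edgeR), and PBS replicate 1 was its high library. Plxna1 stood at 19.4, 36.2 and 28.9 CPM in PBS and 16.9, 25.0, 22.8, 15.1 and 16.6 CPM in DOX, with a log2 fold change of -0.52 ± 0.23 (SE; unadjusted p = 0.0477). Leaving out 1 library gave -0.96 to -0.51 for Plxna2 and -0.83 to -0.33 for Plxna1. Outside the 10 genes, those with the highest mean CPM in their own list were, besides Slit2, Sema3d (log2 fold change -0.29 ± 0.28), Nrp2 (-0.20 ± 0.26), Efna1 (0.20 ± 0.12), Epha2 (0.09 ± 0.13) and the kinase gene Fyn (-0.02 ± 0.17), all with an adjusted p of 0.995 in edgeR. Leaving out 1 library gave -0.77 (without PBS replicate 1) to -0.12 for Sema3d and -0.50 (again without PBS replicate 1) to -0.06 for Nrp2.

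Genes with the most similar library profile were sought by the mean absolute difference of centred log2 CPM over the 8 libraries, among 10240 genes. For Sema3a they were Cybrd1 (0.06) and Col5a2 (0.08), a chain of type V collagen. For Sema4d they were Creb3l1 and Tmem189 (both 0.05), and for Efnb1 Fyn and Lman1 (both 0.06). For Slit3 they were Prkar2a (0.03) and Ube3c (0.05), for Plxnb1 Anapc1 (0.05) and Zfp318 (0.06), and for Nrp1 Ddx51 (0.06) and Stk4 (0.07). The remaining matches lay at larger distances: Mindy4 (0.09) and Uap1l1 (0.10) for Sema7a, and Arhgef40 (0.10) and Mtmr4 (0.12) for Efnb2. For Ephb4 they were Tmtc3 and Iars2 (both 0.13), and for Ephb2 Lama4 (0.15) and Postn (0.18). Distances were not scaled to each gene's own mean absolute deviation. That was 0.20 for Nrp1 and Slit3, 0.26 for Sema7a, 0.31 for Efnb2, 0.33 for Ephb4, 0.49 for Ephb2 and 0.50 for Sema3a. These distances describe 8 libraries in 2 batches, whose collagen share ran from 19.1% to 39.5%, and carry no test.

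The promoters of Efnb1 and Sema7a are shown because these ligand genes lay at opposite ends in PBS replicate 1, Efnb1 at its lowest and Sema7a at its highest level. Each sequence is the 250 bases before the start that RefSeq lists on GRCm38.p6, on the plus strand, at chrX:99135811-99136060 for Efnb1 and chr9:57939862-57940111 for Sema7a, and capitals mark GGGCGG, the GC box bound by SP factors.
Efnb1: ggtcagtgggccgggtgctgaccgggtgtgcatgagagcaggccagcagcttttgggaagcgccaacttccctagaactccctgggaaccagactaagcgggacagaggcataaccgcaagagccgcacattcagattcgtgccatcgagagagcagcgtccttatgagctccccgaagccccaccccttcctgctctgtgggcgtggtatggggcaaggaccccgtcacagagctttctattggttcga
Sema7a: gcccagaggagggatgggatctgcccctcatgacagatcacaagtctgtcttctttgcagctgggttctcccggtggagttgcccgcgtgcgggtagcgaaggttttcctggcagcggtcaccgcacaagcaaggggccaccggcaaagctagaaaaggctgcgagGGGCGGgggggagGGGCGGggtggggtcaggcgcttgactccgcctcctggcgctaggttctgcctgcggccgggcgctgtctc
The Sema7a stretch holds 2 GC boxes in these letters and that of Efnb1 none. On either strand GGGCGG was found before 7 of the 12 starts listed for the 10 genes and before 32.7% of all 32841 starts. Those 7 were starts of Efnb2, Ephb4, Nrp1, Plxnb1, Sema4d, Sema7a and Slit3. Sema4d, with a GC box, was lowest in PBS replicate 1 like Efnb1. Ephb2, without a GC box, was highest in that library like Sema7a. TGTGGT, the core letters read by RUNX factors, was found before 2 of the 12 starts (Sema3a and Sema4d) and 14.0% of all, and TATAAA before 1 (Efnb2) and 12.4% of all. GC content was 60.0% for Efnb1 and 66.4% for Sema7a, against a median of 52.4% over all starts. The counts are per gene, so the start in use was not measured.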

How the data were processed

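Raw read counts per gene symbol were deposited by the authors, 1 column per library and none pooled, for 21154 genes with a total of at least 10 counts. SMART-Seq v4 Plus libraries, amplified by PCR and without strand marks, were made per the labels' protocols. The submitters' processing notes name Trim Galore 0.6.6, STAR 2.7.9a and featureCounts 2.0.1 with GRCm39; annotation, strand setting and multi-mapping rule: not given in the sources used here. Replicates differed by more than sampling noise in every pair.

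Counts were tested in R 4.3.3 with edgeR 4.0.16 (quasi-likelihood, TMM, filterByExpr, batch and group, two-sided, Benjamini-Hochberg over 15373 genes, threshold 0.05). DESeq2 1.42.0 and limma 3.58.1 (voom with quality weights) were alternatives. Each SE is the size of the fold change over the square root of F. CPM used TMM-adjusted library sizes, log2 CPM a prior count of 2, and lengths the union of GENCODE M21 exons (GRCm38, so no gene coordinates are given). The test was first tested on simulated data with groups of 3 and 5 libraries. It recovered 17% of 100 genes given a 2-fold difference and 96% of 100 genes given a 4-fold difference. Of the calls, 5.83% were false.

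The 10 genes, the lists and the alternatives were chosen with earlier results of these data known. Named besides the 10 genes are the list member of highest mean CPM, those at an unadjusted p under 0.05 (at most 3 per list), and the 2 closest profiles of each gene among genes with a mean log2 CPM of at least 1. Plots were drawn with matplotlib 3.10.9 in Python 3.11.15.

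Marker lists not cited above gave summed levels of 2.72 to 17.9 CPM in PBS and 6.33 to 37.9 CPM in DOX for monocytes, macrophages and neutrophils, 829 to 1910 and 1050 to 1570 CPM for reticular and periosteal stroma, and 97.3 to 120 and 115 to 143 CPM for Schwann cells and neurons.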

Additional observations from a re-analysis of the deposited data

How the results depend on the processing

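The 10 genes were recomputed under 18 alternatives (17 for Ephb2, which the stricter filter of 5 CPM in 3 libraries removed), and none was called in any of the 179 fits. Dropping PBS replicate 1, alone or with DOX replicate 1, leaves no PBS library in batch 1. With batch as a term those fits compare the groups within batch 2, as the fit of batch 2 alone does. Nrp1, Plxnb1, Efnb2 and Slit3 kept a value below 0 under every alternative, from -0.43 to -0.19, -0.51 to -0.20, -0.71 to -0.25 and -0.40 to -0.14. The alternatives reuse the same 8 libraries and several are nearly the same fit, so a kept sign is not independent evidence. The share of all genes that kept their sign was not counted. DESeq2 called 26 genes between DOX and PBS and 269 for the difference between batches, against 0 in edgeR; leaving out 1 library in edgeR gave 0 calls between the groups each time and 0 to 58 for the difference between batches (58 without DOX replicate 2, 10 without DOX replicate 1), which could not be fitted without PBS replicate 1. Unadjusted listings ran from 306 genes with DOX replicate 1 counted as PBS to 1928 without it and PBS replicate 1.

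Some values changed sign. With DOX replicate 1 counted as PBS the log2 fold change was 0.17 for Sema3a, 0.14 for Ephb2 and 0.15 for Ephb4, and the median of the 10 genes was 0.03. In batch 2 alone Sema4d was at -0.29, Ephb2 at 0.18 and Epha2 at -0.07. Without PBS replicate 1 and DOX replicate 1 together they were at -0.29, 0.17 and -0.07. In limma-voom Sema4d was at -0.20 and Epha2 at -0.02, and with no batch term Sema4d was at -0.05 and Sema7a at -0.01. Leaving out 1 library gave -0.49 to 0.14 for Sema3a, -0.29 to 0.20 for Sema4d, -0.20 to 0.50 for Sema7a, -0.22 to 0.08 for Efnb1, -0.62 to 0.18 for Ephb2, -0.06 to 0.18 for Epha2 and -0.24 to 0.05 for Fyn. Without DOX replicate 1 the median of the 10 genes was -0.06 against -0.27. The cause of these changes was not tested.

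With the replicate number as a block, edgeR called 0 genes and listed 468 at an unadjusted p under 0.05, and Sema7a was at -0.04. Deviations of same-numbered libraries correlated at 0.25, -0.05 and 0.24 for numbers 1 to 3 (across genes, which are not independent replicates), and not every library correlated best with its own number, so the numbers were not taken as pairs. The intervals rest on 3 PBS libraries, 1 of them the only PBS library of its batch. The parts of library spread and of depth in these intervals were not separated, and no molecular identifiers are named.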

Other observations

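Relatives of the followed genes, picked with their values in view, were compared with them per length within each library, where scaling cancels. Nrp2 exceeded Nrp1 in 8 of 8 libraries, at 72.0 to 190 against 3.41 to 5.55 CPM per kb of exon. That ratio averaged 27.7 ± 11.9 over 3 PBS libraries and 27.6 ± 10.9 over 5 DOX libraries (SD). Nrp2 encodes the other neuropilin, a co-receptor for class 3 semaphorins and VEGF-C. Sema3d and Sema3b, which encode class 3 relatives of semaphorin 3A, also exceeded Sema3a in 8 of 8 libraries. Sema3d lay 15.3 to 24.2 times above it per length, and Sema3b 18.3 to 31.0 times.

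The ratio of Slit2 to Slit3 per length stayed within 0.646 to 0.747 in all 8 libraries, with a mean of 0.690 ± 0.0518 over 3 PBS and 0.695 ± 0.0229 over 5 DOX libraries (SD), while each gene's own CPM varied more between libraries. Among their receptor genes Robo2 lay 3.26 to 5.83 times above Robo1 per length, highest in DOX replicate 1. Plxnb2 exceeded Plxnb1 in 8 of 8 libraries, 1.32 to 2.32 times, with the lowest ratio in DOX replicate 1. These ratios are descriptions with no test between the groups.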
